A study of Mus musculus with 4 samples.

Results

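The genes described here are 8 genes of heart strain: Nppa and Nppb, which encode natriuretic peptides, Npr1 and Npr3, which encode receptors of these peptides, and Myh6, Myh7, Ankrd1 and Acta1, which encode proteins of the heart muscle cell. Their RNA was quantified in entire mouse embryos, taken on embryonic day 9.5, that either lacked Cop1 or served as controls. All probe sets whose only annotated gene symbol is one of the 8 names were taken, which gave 12 of the 45037 probe sets tested on Affymetrix arrays. A further 2 probe sets carry both myosin symbols, Myh6 and Myh7, and are given beside them without being counted. RNA of 6 Cop1-null embryos was mixed into 1 pool and divided into 2 portions, and that of 6 controls, each +/+ or +/- for Cop1, was treated likewise, for 4 arrays in all. The control arrays are titled wild-type, although heterozygotes may be in their pool. The sources used here do not describe the null allele, the strain or the sex of the embryos. The 2 portions of a pool are technical repeats, so the p-values below cover only the spread between portions of 2 RNA pools and say nothing of the spread between embryos.

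The heart beats at this stage and its muscle is laying down the working chambers. Heart muscle cells under stretch or load secrete the natriuretic peptides, atrial natriuretic peptide from Nppa and B-type natriuretic peptide from Nppb. In the embryo Nppa also marks the muscle of the forming atria and ventricles. The peptides act through NPR1, a receptor with guanylyl cyclase activity that makes cyclic GMP, while NPR3 takes them up and clears them. In the mouse, Myh7 encodes the main myosin heavy chain of the embryonic ventricle, and Myh6 that of the atria and, after birth, of the ventricle as well. Strained adult mouse heart muscle is known for raising Nppa, Nppb, Myh7, Acta1 and Ankrd1 and lowering Myh6. COP1, the ubiquitin ligase missing in the null embryos, marks transcription factors such as JUN for degradation.

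Of the 12 probe sets, 5 rose in the Cop1-null pool and 0 fell. A rise or fall is an adjusted p under 0.05 (limma, Benjamini-Hochberg over all probe sets) together with a change of at least 1.5-fold. Over the whole array 6.76% of probe sets rose and 6.96% fell. The rises belonged to 4 genes: both natriuretic peptide genes, Myh7 and Ankrd1, with changes between 2.00-fold and 3.21-fold. The 7 probe sets of Npr1, Npr3, Myh6 and Acta1 passed neither limit. Their differences lay between -0.10 and 0.15 log2 units, with adjusted p from 0.146 to 0.893. On 9 of the 12 probe sets the values of the 2 genotypes did not overlap, which was also true of 65.3% of all probe sets. The array data are whole-embryo values, in which a change in the number of heart cells and a change of RNA per heart cell cannot be told apart.

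The starts of the genes that rose are shown, with that of Acta1, which was not called, beside them. The choice followed the calls, and whether any motif bears on the rises was not tested. Each line holds the 250 bases before the transcription start annotated by RefSeq in GRCm38.p6, read 5′ to 3′ on the gene's own strand. Capitals mark matches, on either strand, to any of 7 motifs: TATAAA for the TATA box, GATAA for GATA factors, GGAATG for TEAD factors, AAGTG for NKX2-5, TGANTCA for AP-1, ACGTG for the core bound by hypoxia-inducible factors, and the CArG box of the factor SRF. None of the capitals in these lines belongs to overlapping motifs. Myh7 has 2 annotated starts, and the upstream one is shown.
Nppa, chr4:148000472-148000721, plus strand: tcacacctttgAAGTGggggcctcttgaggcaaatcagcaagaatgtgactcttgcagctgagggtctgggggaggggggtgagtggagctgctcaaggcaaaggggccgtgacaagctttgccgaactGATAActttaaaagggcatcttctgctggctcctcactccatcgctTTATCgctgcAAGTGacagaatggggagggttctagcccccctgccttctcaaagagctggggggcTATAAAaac
Nppb, chr4:147985650-147985899, plus strand: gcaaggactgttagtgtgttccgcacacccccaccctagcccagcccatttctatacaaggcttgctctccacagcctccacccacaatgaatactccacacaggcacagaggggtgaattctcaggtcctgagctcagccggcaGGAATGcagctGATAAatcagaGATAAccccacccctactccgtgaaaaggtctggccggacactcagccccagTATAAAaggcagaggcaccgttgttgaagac
Ankrd1, chr19:36119845-36120094, minus strand: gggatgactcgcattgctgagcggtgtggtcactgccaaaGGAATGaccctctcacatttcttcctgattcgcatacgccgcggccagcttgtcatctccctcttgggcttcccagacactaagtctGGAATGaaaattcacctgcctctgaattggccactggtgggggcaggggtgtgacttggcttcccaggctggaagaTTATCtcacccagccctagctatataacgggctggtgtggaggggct
Myh7 upstream start, chr14:54994627-54994876, minus strand: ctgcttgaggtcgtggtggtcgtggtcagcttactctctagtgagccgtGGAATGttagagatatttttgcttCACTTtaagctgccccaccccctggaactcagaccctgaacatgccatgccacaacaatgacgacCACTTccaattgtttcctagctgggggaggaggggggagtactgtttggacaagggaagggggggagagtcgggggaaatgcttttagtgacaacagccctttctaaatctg
Acta1, chr8:123894776-123895025, minus strand: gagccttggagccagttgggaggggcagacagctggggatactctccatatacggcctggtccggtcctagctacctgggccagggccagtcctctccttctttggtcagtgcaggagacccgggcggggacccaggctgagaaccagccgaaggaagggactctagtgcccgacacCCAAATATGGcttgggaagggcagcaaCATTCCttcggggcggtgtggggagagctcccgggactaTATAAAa

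Nppa and Nppb each held 1 TATA match and 2 GATA matches. The TATA match lay 26 to 31 bases before the annotated start in Nppb, but 4 to 9 in Nppa and 2 to 7 in Acta1. All distances are counted from the annotated starts, which were not checked here. The GATA matches of Nppb lay 90 to 94 and 79 to 83 bases before its start, beside a TEAD match at 100 to 105. Those of Nppa lay at 117 to 121 and, on the opposite strand, at 71 to 75, with NKX2-5 matches at 61 to 65 and 235 to 239. Ankrd1 held 1 GATA and 2 TEAD matches, and the upstream start of Myh7 held 1 TEAD and 2 NKX2-5 matches. The other start of Myh7, whose window overlaps that one, held 0 TEAD matches and 1 NKX2-5 match. Among genes without a call, Acta1 held a CArG box, a TATA and a TEAD match, Myh6 held 1 TEAD and 1 NKX2-5 match, and Npr1 and Npr3 held none of the 7 motifs. The AP-1 and hypoxia motifs were found in 0 of the 9 windows of the 8 genes. Over all 32851 promoter windows of this length, 12.4% held the TATA letters, 22.6% the GATA, 12.6% the TEAD, 40.7% the NKX2-5, 6.75% the AP-1, 1.47% the CArG and 16.6% the hypoxia motif. A match here is a string of letters, not a measured binding site, and a motif that was not found may lie outside these 250 bases.

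**Figure D1:**
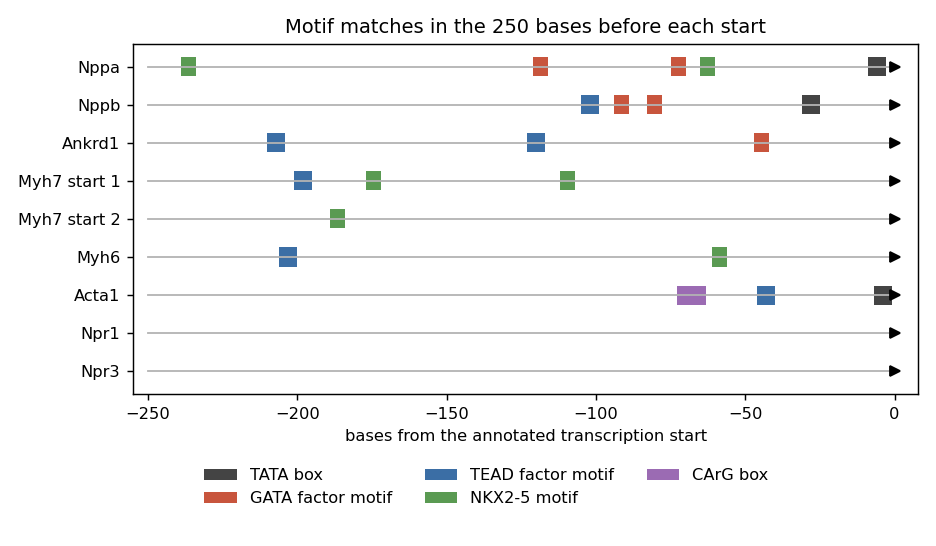
Positions of motif matches in the 250 bases before each annotated transcription start (arrowhead) of the 8 genes, with the x axis in bases from the start and 1 line per start. Only Nppa, Nppb and Ankrd1 hold GATA matches (red), and Acta1 alone holds a CArG box (purple).

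Nppb had the greatest rise of the 8 genes. Its probe set read 7.72 and 7.72 in the control portions and 9.38 and 9.42 in the null portions (log2 expression). The null values lay at least 1.66 log2 units above the controls, while the portions of a pool differed by 0.046 at most. The pool means were 7.72 ± 0.0040 and 9.40 ± 0.033 (SD, n = 2 portions), a rise of 1.68 log2 units (SE 0.06), or 3.21-fold (limma, adjusted p = 0.000599). Of all probe sets, 367 had a larger rise.

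Nppa stood higher in the null pool as well. It read 9.40 and 9.39 in the control portions and 10.87 and 10.91 in the null portions, and the genotypes did not overlap. The rise was 1.49 log2 units (SE 0.06), or 2.82-fold, with a 95% interval of 2.52-fold to 3.15-fold (limma, adjusted p = 0.000633). The interval of Nppb ran from 2.87-fold to 3.59-fold and overlaps that of Nppa. Whether the 2 genes rose by different amounts was not tested.

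Nppb and Nppa are neighbours on chromosome 4, with no other protein-coding gene between them in RefSeq. Of the 5 protein-coding genes on each side, chosen after the values were seen, 9 of 10 were measured. Plod1, a collagen lysyl hydroxylase gene, rose by 0.76 and Draxin, an axon guidance gene, changed by -0.87. The other 7 had no call, including the nearest neighbours on either side, 2510039O18Rik (-0.38) and Clcn6 (0.15), a chloride transporter gene. Among all 18193 genes, each by its brightest probe set, 3.58% rose and 8.06% fell.

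The receptor genes did not pass the test in either direction. Npr1, the cyclase receptor, read 4.84 and 4.68 in the control portions and 4.69 and 4.63 in the null portions, so that the genotypes overlapped. Its difference was -0.10 log2 units, with a 95% interval from -0.32 to 0.12 (limma, adjusted p = 0.427). This probe set was dim: only 29.2% of probe sets had a lower mean, which limits what it can show. Npr3, the clearance receptor, which in the embryonic heart is known from the endocardium, has 3 probe sets. The brightest read 8.03 and 7.91 in the controls and 8.08 and 7.97 in the null pool, a difference of 0.06 (95% interval -0.15 to 0.27). The others differed by 0.15 (-0.02 to 0.31) and 0.15 (-0.06 to 0.35), with both null values above both control values. None of the intervals of the receptor probe sets reached the log2 value of the 1.5-fold limit, 0.58.

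**Figure D2:**
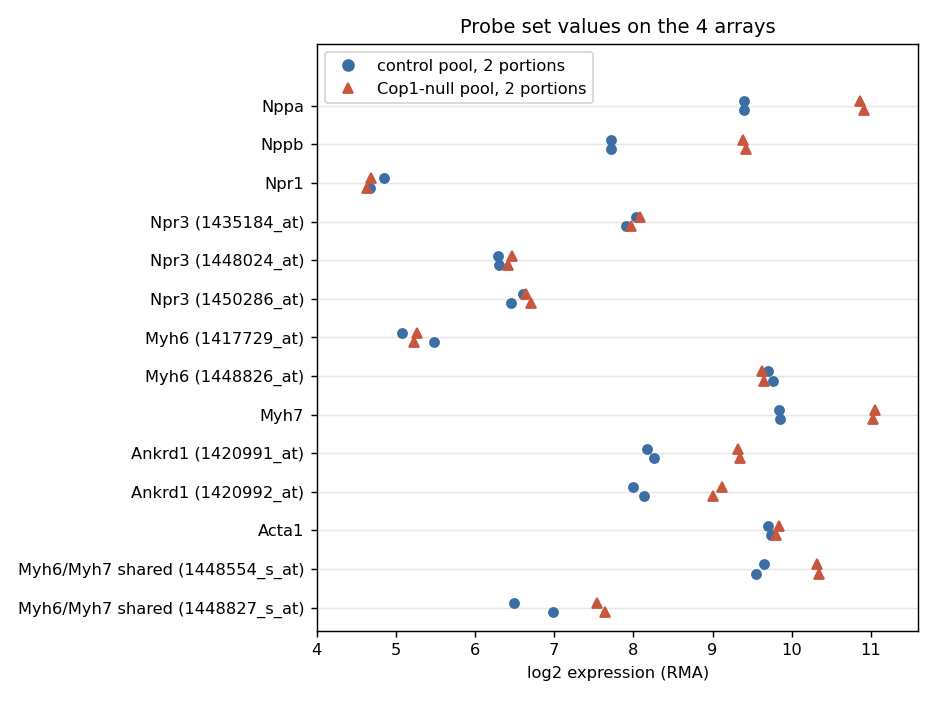
Log2 expression (x axis) of each probe set of the 8 genes and of the 2 probe sets shared by Myh6 and Myh7 on the 4 arrays; circles are the control portions and triangles the Cop1-null portions. Nppa, Nppb, Myh7 and Ankrd1 show both null values at least 0.87 above both controls, whereas the points of Npr1, Npr3, Myh6 and Acta1 lie close together.

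Of the myosin heavy chain genes, Myh7 rose and Myh6 had no call. Myh7 read 9.84 and 9.85 in the control portions and 11.05 and 11.03 in the null portions. The null values were higher by at least 1.18 log2 units, against gaps of 0.0033 and 0.023 between portions. The rise was 1.20 log2 units (SE 0.06), or 2.29-fold (limma, adjusted p = 0.000781). The brighter probe set of Myh6 read 9.70 and 9.76 in the controls and 9.62 and 9.65 in the null pool, a difference of -0.10 with a 95% interval from -0.26 to 0.07 (adjusted p = 0.315). The dimmer one read 5.08 and 5.48 in the controls and 5.26 and 5.23 in the null pool, so that the controls enclosed the null values.

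The Myh6 and Myh7 genes lie side by side on chromosome 14, and their RNAs are alike enough that some probes read both. The 2 probe sets annotated with both symbols lay between the gene-specific ones in their change. The brighter of them rose from 9.64 and 9.55 to 10.32 and 10.35, by 0.73 log2 units (SE 0.07, adjusted p = 0.00236). The dimmer rose from 6.49 and 6.98 to 7.54 and 7.64, by 0.86 (SE 0.17, adjusted p = 0.0205), but with 0.50 between the control portions. The brighter lost its call with the arrays centred on the poly-A spikes (0.48, adjusted p = 0.0638). The dimmer lost it when either null portion was left out (0.90 without replicate 1, 0.81 without replicate 2, adjusted p = 0.0912 and 0.118). Within each array, the log2 ratio of the Myh7 to the brighter Myh6 probe set was 0.14 and 0.08 in the control pool and 1.43 and 1.38 in the null pool. The ratio rose 2.46-fold, and an exact two-sided permutation test over the 4 arrays gave p = 0.333, the smallest value that 2 arrays against 2 allow. The ratio compares the change of 2 probe sets and does not give the proportion of the 2 myosins. Of the 10 protein-coding neighbours of this pair, chosen after the values were seen, all were measured, 0 rose and 1 fell (Thtpa, -0.70). Among all 18193 genes, 3.58% rose and 8.06% fell.

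Ankrd1 encodes a protein of the sarcomere and nucleus of muscle cells that binds titin and is induced by stretch. Both of its probe sets rose. The first read 8.17 and 8.26 in the controls and 9.32 and 9.35 in the null pool, and rose by 1.12 log2 units (SE 0.07), or 2.17-fold (limma, adjusted p = 0.00101). The other read 7.996 and 8.14 in the controls and 9.12 and 9.01 in the null pool, a rise of 1.00 (SE 0.08, adjusted p = 0.00198). Its null values cleared the controls by 0.87, while the greatest gap between portions was 0.14.

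Acta1, the skeletal muscle actin gene that the embryonic heart also expresses, had no call. It read 9.70 and 9.74 in the control portions and 9.84 and 9.79 in the null portions. The difference was 0.10 log2 units, with a 95% interval from -0.07 to 0.27 (limma, adjusted p = 0.308). Somite muscle is another known source of Acta1 RNA, and its marker genes were lower in the null pool, as given below. The part of that muscle in the Acta1 value was not tested.

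**Figure D3:**
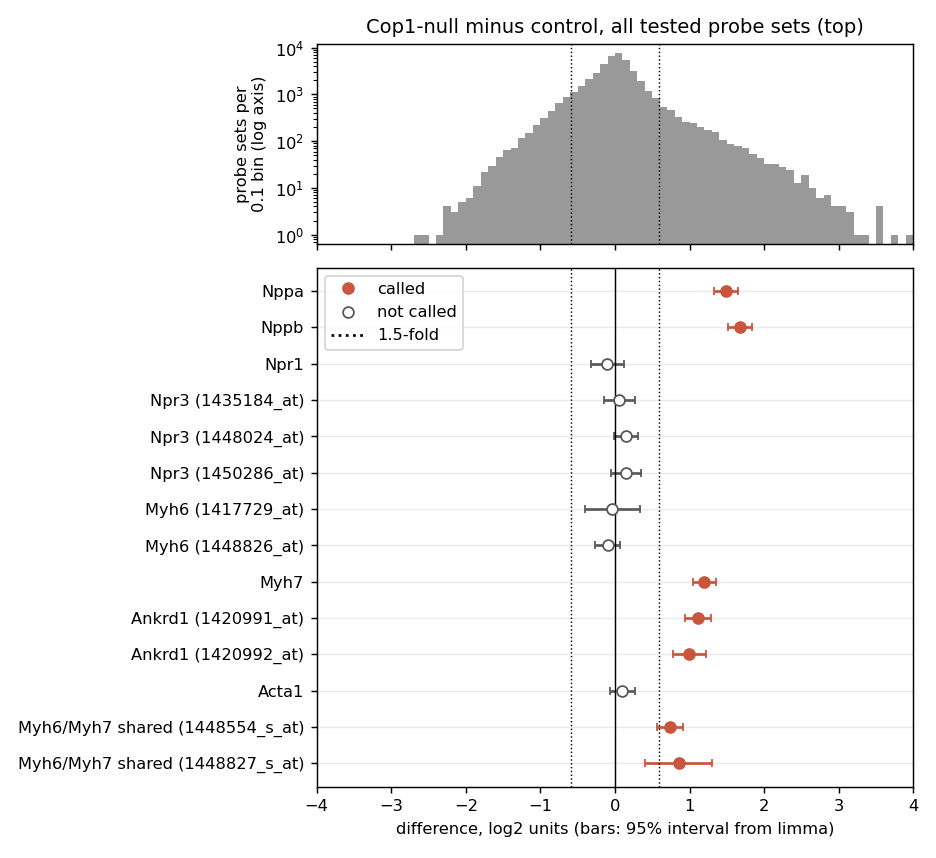
Top, the number of probe sets (log axis) by their difference between the pools, for all 45037 tested probe sets. Bottom, the difference of each probe set (Cop1-null minus control, log2 units) with its 95% interval from limma, filled where called; the called probe sets of Nppa, Nppb, Myh7 and Ankrd1 lie between 1.00 and 1.68, in the upper tail of the top panel.

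The rises were not shared by the genes listed for heart muscle. Of these 16 contractile and calcium genes, 0 rose and 2 fell. Their median difference was -0.002 log2 units, against -0.02 over all 18193 genes, of which 3.58% rose and 8.06% fell (each gene by its brightest probe set). The falls were those of Pln (-1.10), the gene of the calcium pump regulator phospholamban, and Ldb3 (-0.75), a Z-disc gene. No other probe set of Ldb3 was called, and the mean of its probe sets gave -0.20. The summed level of the 16 genes was 13.75 and 13.73 in the control pool and 13.82 and 13.80 in the null pool (log2 of the sum of unlogged values). This sum is weighted towards its brightest genes, Tpm1 (0.47, no call) and Atp2a2 (0.12, no call), and was not computed without them. The part of other tissues, such as somite muscle, in the values of this list was not tested. For the 8 genes, 4 rose and 0 fell when counted the same way, with a median of 0.61. In the working chamber muscle, which Nppa marks, 0 of 10 measured genes rose and 2 fell: Smpx (-0.94), a stretch-related muscle gene, and Myl2 (-0.80), the ventricular myosin light chain gene. The median of this list was 0.06, but 0.0060 without control replicate 1, 0.024 without control replicate 2 and -0.0049 with median centring. With poly-A centring, 6 heart muscle genes and 4 chamber genes fell and 0 rose, and the medians were -0.26 and -0.20. That centring lowered every difference by 0.26 and put the median over all genes at -0.28. Under it, 7168 of the 45037 probe sets fell and 1849 rose.

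Among 14 measured genes listed as other heart stress genes, not all of them known to rise under strain, 2 rose and 1 fell. Over all genes, 3.58% rose and 8.06% fell. The median of the 14 was 0.01, but -0.03 without control replicate 1, 0.06 without control replicate 2 and -0.25 with poly-A centring, under which 3 fell. The median over all genes was then -0.28. Ccn1 (1.21) and Ccn2 (1.08), which encode matricellular proteins and are also active in many other tissues, rose. Ccn2 read 8.96 and 8.97 in the controls and 10.05 and 10.04 in the null pool. Tnni1, the slow skeletal troponin I gene of the embryonic heart, fell (-0.75). Actc1, the cardiac actin gene, read 12.47 and 12.46 in the controls and 12.62 and 12.63 in the null pool, with no call. The adjusted p of the called genes lay between 0.000908 and 0.00175 (limma).

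In the rest of the natriuretic peptide pathway, 1 of 13 measured genes rose and 3 fell, with a median of -0.15, where 3.58% of all genes rose and 8.06% fell. At a fold limit of 2, 0 of the 13 rose and 0 fell. Corin, which encodes the protease that cuts the atrial peptide out of its precursor, fell from 7.19 and 7.25 to 6.45 and 6.54 (-0.73, SE 0.07, adjusted p = 0.00254). Among the phosphodiesterase genes, whose enzymes break down cyclic GMP, Pde5a (-0.85) and Pde9a (-0.63) fell while Pde2a rose (0.82). Pde9a dropped under the fold limit without control replicate 1 (-0.58) or null replicate 2 (-0.57), and Pde2a with poly-A centring (0.56). The C-type peptide gene Nppc (-0.14), its receptor gene Npr2 (-0.13), the protease gene Furin (-0.04) and the cyclic GMP-dependent kinase gene Prkg1 (0.27), named after their values were seen, had no call. Peptide levels, cyclic GMP and enzyme activity were not measured.

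Of 12 transcription factor genes of the heart, several of which are known to act on the Nppa and Nppb promoters, 1 rose and 3 fell. Over all genes, 3.58% rose and 8.06% fell. The median of the 12 was -0.07, but 0.01 without control replicate 1 and 0.05 without control replicate 2. It was 0.15 on the mean of a gene's probe sets and -0.32 with poly-A centring. Gata6 rose by 0.75, and Tbx20 (-0.84), Myocd (-0.79) and Hand2 (-0.72) fell. These calls depended on the processing. None of the 4 was called on the mean of a gene's probe sets, Gata6 was not called with poly-A centring (0.49), and Myocd was not called with portion number as a replicate block (adjusted p = 0.0737). Without control replicate 1, control replicate 2 or null replicate 1, the adjusted p of Myocd was 0.152, 0.0867 and 0.0893. Gata4 (0.08) and Nkx2-5 (0.36), named after their values were seen, had no call.

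Genes listed for other cell types that could hold these RNAs moved in both directions, where 3.58% of all genes rose and 8.06% fell. Of 11 genes of somite and skeletal muscle, 7 fell and 0 rose (median -0.66), led by Myog (-1.49), Myl1 (-1.44), Myf6 (-1.21) and Myf5 (-0.72). Their summed level was 10.63 and 10.60 in the controls and 9.82 and 9.87 in the null pool, and 3 of the 11 lay under the median brightness of all probe sets. Of 10 genes of endocardium and endothelium, 2 rose, Kdr (0.74) and Pecam1 (0.72), and 0 fell (median 0.36). Their summed level was 11.66 and 11.61 in the controls and 12.001 and 11.993 in the null pool, and Npr3, of the same lining, had no call. Cd34 alone of the list was lower, by less than the fold limit (-0.45, limma, adjusted p = 0.00871). The other uncalled genes of the list were higher, by 0.16 to 0.55. With poly-A centring, neither Kdr (0.49) nor Pecam1 (0.46) was called, 1 gene of the list fell, and the median of the list was 0.10. The median over all genes was then -0.28. Of 7 smooth muscle genes, 1 rose, Tagln (1.34), and 0 fell, with a median of 0.29. The rises were 2 without control replicate 1, without null replicate 2 or with quantile normalization once more. The falls were 1 without null replicate 1, with median centring or with poly-A centring, and the last gave a median of 0.04. The smooth muscle genes had a summed level of 12.31 and 12.26 in the controls and 12.94 and 12.94 in the null pool. The brightest of them, Acta2 (0.57, no call), is also in the list of other heart stress genes above. The smooth muscle list is therefore not separate from heart muscle. The part of these cell types in the values of the 8 genes was not tested.

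**Figure D4:**
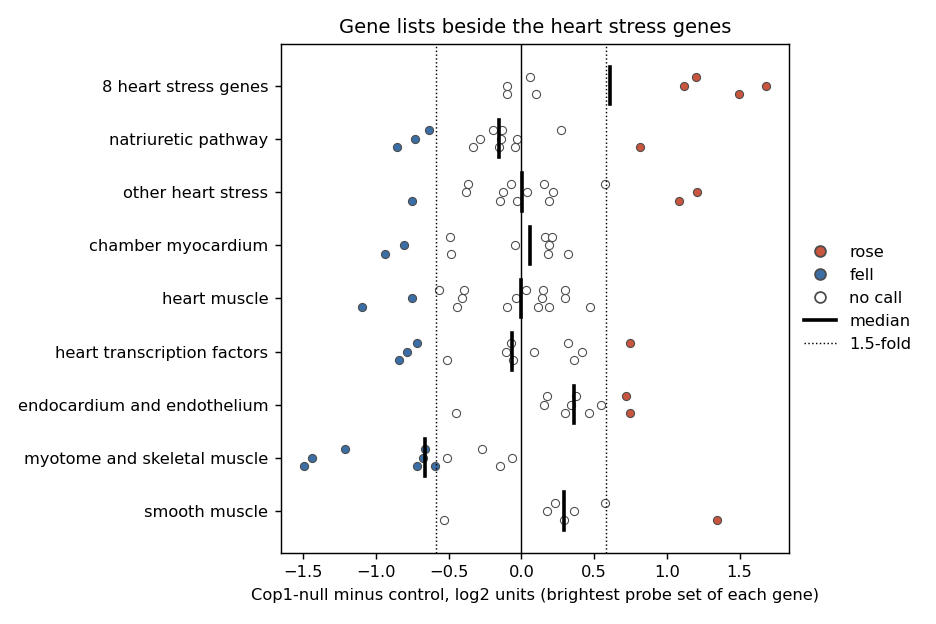
Difference between the pools (x axis, log2 units) of each measured gene by its brightest probe set, in 9 rows for the 8 heart stress genes and the other gene lists; red points rose, blue points fell and bars mark medians. The 8 genes split into 4 rises and 4 values near 0, the heart muscle list lies around 0 and the somite muscle list lies mostly below it.

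The genes whose values ran closest to the mean of Nppa and Nppb over the 4 arrays, by Euclidean distance after centring each gene, were Pkp2 (0.034), LOC102631979 (0.036), 4930447C04Rik (0.051), Hk2 (0.062) and Slc16a3 (0.068). Pkp2 encodes a desmosome protein of heart muscle and epithelia, Hk2 a hexokinase and Slc16a3 a lactate transporter. With 4 arrays in 2 pools this closeness mostly reports a like difference between pools, and their differences lay between 1.56 and 1.60. Of the 3 probe sets of 4930447C04Rik no other rose, and the one used was dim in the controls (4.09 and 4.07). Of the 4 probe sets of Pkp2, 1 other rose. In the same order of 18191 genes, Myh7 was at place 114 and Ankrd1 at 159, and Acta1, Npr3, Myh6 and Npr1 were at 5116 or beyond.

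Facts of the whole series bear on every value above. Arrays of the same pool correlated at r = 0.998 over probe sets, and arrays of different genotype at 0.980 to 0.982. A gap of 1.5-fold or more separated the control portions in 133 probe sets, the null portions in 143 and the pool means in 6266. Cop1 itself fell from 11.35 and 11.26 to 9.67 and 9.77 on its only annotated probe set, 2.99-fold. The labels do not say whether this probe set covers the deletion. In all, 3044 probe sets rose and 3134 fell, and centring on poly-A spikes gave 1849 and 7168. That centring lowered every difference by 0.26 and took the median over genes from -0.02 to -0.28. The median of the spikes on an array lay between 7.23 and 7.71 log2 units. This range is wider than the shift of 0.26 between pools, so the spikes also differed between portions of a pool. All values given with poly-A centring carry this spread. The 5 probe sets that rose kept their calls under poly-A centring, while the differences of Npr3 and Acta1, which had no call, turned negative.

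**Figure D5:**
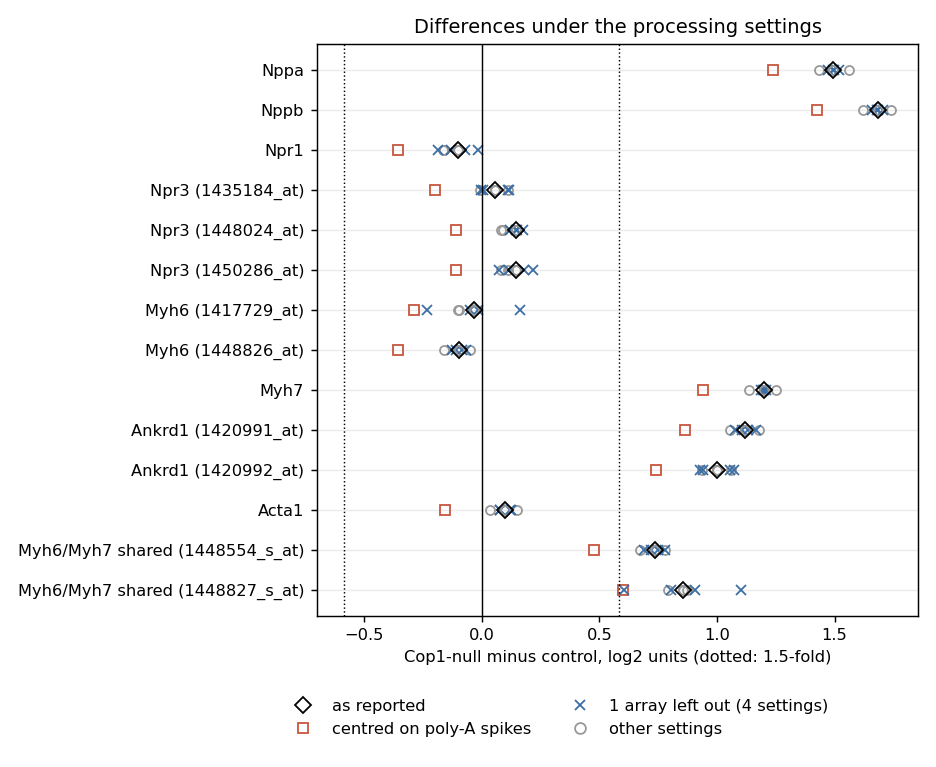
Difference of each probe set (x axis, log2 units) as reported and under up to 11 other settings. The called probe sets of Nppa, Nppb, Myh7 and Ankrd1 stay above the 1.5-fold line in every setting shown, with the lowest values (0.74 to 1.43) under poly-A centring, and the uncalled ones stay inside both lines.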

How the data were processed

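Whole embryos were lysed after dissection, RNA was column-purified and biotin-labelled cRNA was hybridised to Affymetrix arrays, per the labels' protocols. The authors deposited log2 expression values. Per the submitters' processing notes these came from RMA in affy, an R package. The sources used here give neither versions nor the probe mapping. RMA gives all arrays 1 distribution of probe intensities, so a change in total RNA leaves no trace, and it may compress differences of dim probe sets. The values were used as deposited.

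The table held 45101 probe sets. Leaving out 64 control probe sets, 45037 entered a fit in R 4.3.3 with limma 3.58.1 (lmFit, eBayes, genotype as the only term, 2 arrays against 2), with Benjamini-Hochberg adjustment over all of them. Differences are null minus control. A call needs an adjusted p under 0.05 and at least 1.5-fold. Intervals are at 95%. The fit was tested on simulated data, in which many changes set at 1.5-fold, the limit itself, were not called. An exact permutation of 4 arrays cannot give a p under 0.333. Array number limits the precision, as there is no read depth.

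Names came from the platform's annotation table, which gives 1 gene for 34945 of them and several for 932; the other 9160 are unnamed. In gene lists each gene is given by its probe set of highest mean. Lists are described by counts and medians without a set test. Members and lists were chosen with earlier results of these data known. Named are all 8 genes, from each list the called genes of largest change, 4 at most, Cop1 and the 5 genes nearest to Nppa and Nppb. Outside this rule, Actc1, Acta2, Tpm1, Atp2a2 and Cd34 were named after their values were seen. Any others are marked so where they appear. Among the listed genes, Ostn, Xirp2, Spp1 and Gdf15 had no probe set with 1 gene symbol. Promoter sequences came from RefSeq, GRCm38.p6, for all 8 genes. The same-numbered portions are not tied to each other by the labels, and their deviations correlated at 0.06 over probe sets. Alternatives were scaling, a brightness filter, the variance model, a replicate block, leaving out each array, the fold limit and, for lists, the mean of a gene's probe sets.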

Additional observations from a re-analysis of the deposited data

How the results depend on the processing

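The 5 probe sets of Nppa, Nppb, Myh7 and Ankrd1 that rose kept their calls under all 11 alternatives, except that 1 Ankrd1 probe set (0.9987 log2 units) fell just under a fold limit of 2, which left 4 rises. With portion number as a replicate block the count stayed at 5, and leaving out each array in turn also gave 5. Among the called genes of the lists, the block ended the call of 1, Myocd. The portions share only a number in the labels. The differences ranged from 1.24 to 1.56 for Nppa, 1.43 to 1.74 for Nppb, 0.94 to 1.25 for Myh7, and 0.86 to 1.18 and 0.74 to 1.07 for the Ankrd1 probe sets. Their highest adjusted p in any setting was 0.0234. None of the 7 uncalled probe sets gained a call. Without the dimmest 40% of probe sets, Npr1 and the dimmer Myh6 probe set were not in the fit. Over the whole array, centring on poly-A spikes gave 1849 rises and 7168 falls, and a fold limit of 2 gave 1393 and 749, fewer by construction. For called genes of the lists, 258 of 298 values under alternatives kept their call and 40 lost it, with no change of direction. Leaving out an array leaves 1 array in a pool, which is then assumed to vary like the other pool. All of this bears on 2 RNA pools: differences between embryos were not measured.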
